A study of Mus musculus with 14 samples.

Results

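The mitosis and chromosome segregation genes are a list of 42 mouse genes whose products drive entry into mitosis, separate the chromosomes and divide the cell. They were chosen by name, by matching the symbol of each gene to the array's annotation, and 41 of them were measured among 18193 genes in all. Each gene is represented by its brightest probe set, the group of short probes that reports one transcript. The list member Ccnb1 was not analysed here.

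In a dividing cell the kinase Cdk1, bound to cyclins of the A and B types, starts mitosis. Kinetochores, protein plates built on the centromere of each chromosome, then attach to the microtubules of the spindle. The spindle checkpoint holds the anaphase promoting complex inactive until all chromosomes are attached, after which that ubiquitin ligase destroys securin and the B-type cyclins, the sister chromatids part, and a contractile ring splits the cell. Most of these genes are transcribed late in the cell cycle and are low in resting cells. In the adult subependymal zone (SEZ), the neurogenic layer beside the lateral ventricle, slowly dividing stem cells of astrocytic kind produce fast dividing transit-amplifying progenitors and then neuroblasts, while parenchymal astrocytes and ependymal cells divide rarely.

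The cells came from brains of hGFAP eGFP mice aged 8 weeks, in which a human GFAP promoter drives enhanced green fluorescent protein (GFP), so all 5 groups carry that transgene. Cells were sorted by fluorescence. From the SEZ came the double-positive sort SEZ_GFPprom (GFP and prominin, 4 arrays) and the single-marker sorts SEZ_GFP, SEZ_Prom (prominin) and SEZ_CD24 (2 arrays each), and from the diencephalon the GFP sort DIEC_GFP (4 arrays). Per the labels SEZ_GFPprom, SEZ_GFP and SEZ_Prom are neural stem, SEZ_CD24 is ependymal and DIEC_GFP astrocytes, and no gate beyond the single marker is stated for the single-marker sorts. RNA was amplified in 2 rounds and hybridised to Affymetrix MOE430 2.0 arrays, 14 in all. Arrays of a group are labelled biological replicates, and the labels do not tell whether animals were separate or pooled. The p-values therefore reflect differences between arrays. Their small number limits the precision of every value.

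The sorts are mixtures, and markers bear on their labels. The summed intensity of 6 ependymal markers was 215 to 381 in SEZ_CD24, the sort labelled ependymal, against 10752 to 18711 in SEZ_GFPprom. SEZ_CD24 instead had 10003 to 16628 over 6 neuroblast markers and 12741 to 24581 over 6 microglial markers. Over 2 globin and erythroid markers it had 3451 to 8751, where all other arrays had 35 to 90. The neuroblast markers include Cd24a, the gene of the antigen used to sort SEZ_CD24, so their sum is not independent of that gate. The sum of 6 neuroblast markers was 10304 and 10427 in SEZ_GFP, 3822 to 5234 in SEZ_GFPprom, 1410 and 2852 in SEZ_Prom and 759 to 1105 in DIEC_GFP. Over 4 markers of transit-amplifying progenitors it was 2708 and 5709 in SEZ_CD24, 2749 and 2984 in SEZ_GFP, 913 to 1920 in SEZ_GFPprom, 556 and 1343 in SEZ_Prom and 236 to 429 in DIEC_GFP. The astrocyte sum of 7 markers was 11683 to 19869 in DIEC_GFP. It overlapped with 11400 to 13256 in SEZ_GFPprom, 10462 and 13076 in SEZ_GFP and 10059 and 11922 in SEZ_Prom, and was 2883 and 7504 in SEZ_CD24. In DIEC_GFP 6 markers of oligodendrocyte progenitors summed to 10440 to 13807 and 4 of oligodendrocytes to 16223 to 22481.

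The mitosis genes were lowest in the diencephalic sort and highest in the GFP sort of the SEZ. DIEC_GFP had the lowest group mean for 38 of the 41 genes, and SEZ_GFP the highest for 36. The median over the genes of their mean log2 intensity was 8.67 in SEZ_GFP, 8.08 in SEZ_GFPprom, 7.85 in SEZ_CD24, 6.80 in SEZ_Prom and 4.58 in DIEC_GFP. On single arrays the median over the genes was 8.53 and 9.04 in SEZ_GFP, 7.51 to 8.55 in SEZ_GFPprom, 7.33 and 8.38 in SEZ_CD24, 6.71 and 6.92 in SEZ_Prom and 4.00 to 5.25 in DIEC_GFP. SEZ_GFPprom overlapped with its neighbour SEZ_GFP and with SEZ_CD24 in these medians, while SEZ_Prom and DIEC_GFP each stood apart from all other sorts. In sorted populations, fewer cells of a dividing type and less RNA per cell cannot be told apart.

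**Figure D1:**
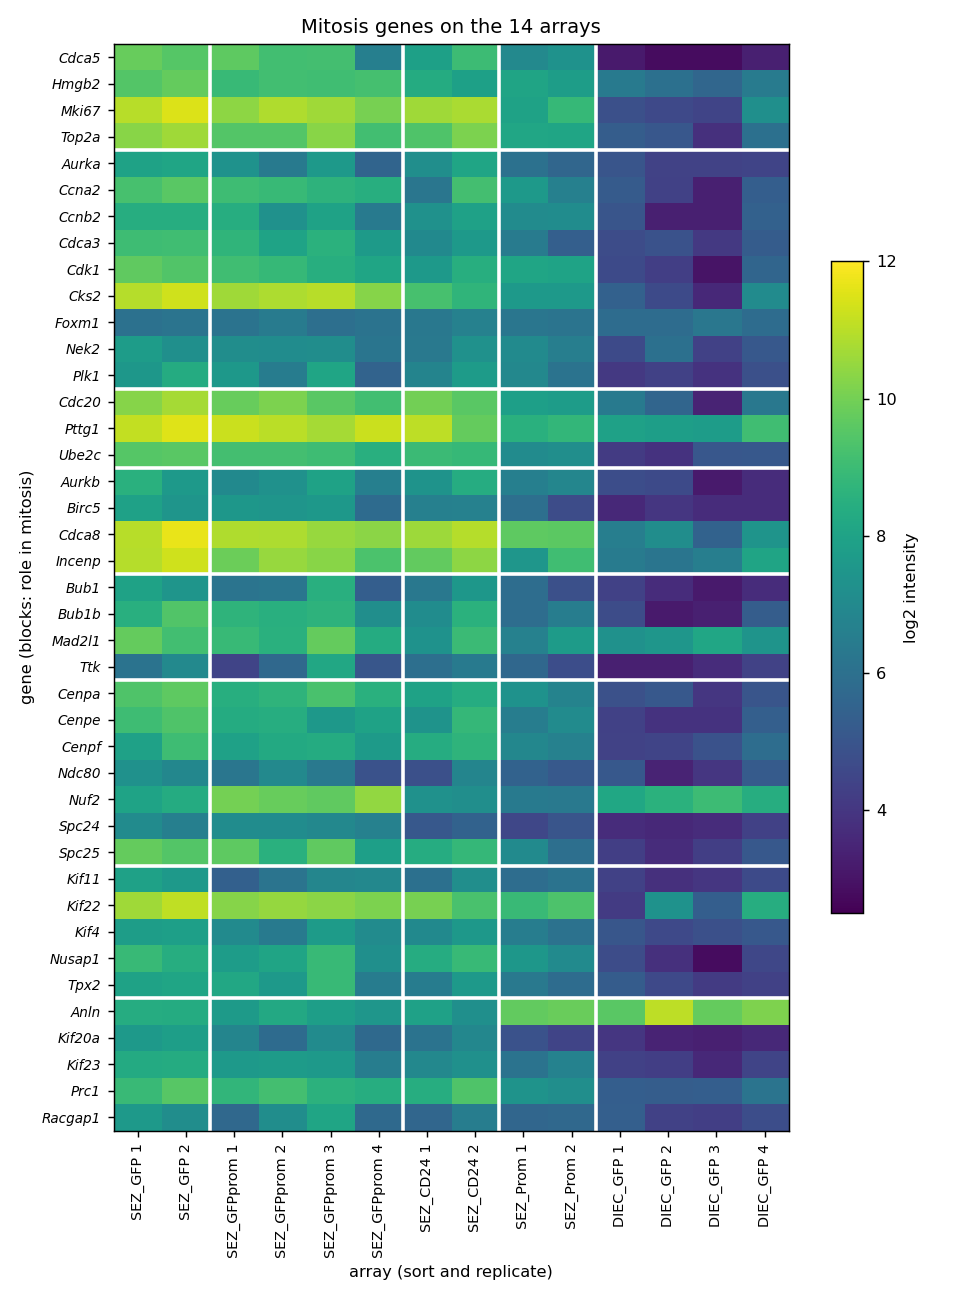
Log2 intensity of the 41 measured mitosis genes (rows, in blocks by role) on each of the 14 arrays (columns, grouped by sort), with colour for the level. The DIEC_GFP columns are dark (low) for most genes, with lighter cells for Anln, Nuf2, Mad2l1 and Pttg1.

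Set against DIEC_GFP, 38 of the 41 genes were higher in SEZ_GFPprom and 1 was lower, where 10.1% of all genes were higher and 7.78% lower (limma adjusted p under 0.05 over 18193 genes). The same numbers, 38 higher and 1 lower, passed in SEZ_GFP, against 5.61% and 7.05% of all genes. In SEZ_CD24 34 were higher and 2 lower, against 6.9% and 9.74%, and in SEZ_Prom 19 were higher and 1 lower, against 3.35% and 2.98% (6.33% in either direction). The median difference from DIEC_GFP over the 41 genes was 4.02 log2 units in SEZ_GFP, 3.21 in SEZ_GFPprom, 3.16 in SEZ_CD24 and 1.81 in SEZ_Prom, and over all genes it was 0.085 in SEZ_GFPprom and nearer to 0 in the others. A log2 difference of 1 is a doubling of intensity. The 4 comparisons share the DIEC_GFP arrays and so are not independent of each other.

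The arrays themselves were apart in most genes. Every SEZ_GFPprom array lay above every DIEC_GFP array in 38 of the 41 genes and below in 1, where 11.6% and 7.77% of all genes did so. For SEZ_GFP against DIEC_GFP the numbers were 38 above and 1 below (15.7% and 16.4% of all genes), for SEZ_CD24 37 and 2 (14.4% and 16.6%) and for SEZ_Prom 34 and 1 (14.3% and 11.6%). Neuroblast markers moved the same way, with 5, 6, 6 and 3 of 6 higher than in DIEC_GFP in SEZ_GFPprom, SEZ_GFP, SEZ_CD24 and SEZ_Prom, and so did 3, 3, 3 and 2 of 4 transit-amplifying markers. Markers of oligodendrocyte progenitors, themselves able to divide, went the other way, with 6, 3, 6 and 2 of 6 lower. Their part in the result was not tested. Signal of control transcripts leaned more to the 3' end in DIEC_GFP, with a log2 ratio of 3' to 5' probe sets of 5.04 to 5.74 against 4.58 to 5.35 in the SEZ arrays. With that ratio in the fit 36, 35 and 38 mitosis genes passed in SEZ_GFPprom, SEZ_GFP and SEZ_CD24, and 7 in SEZ_Prom. The counts over all genes, 3247, 2302 and 1151 in SEZ_GFPprom, SEZ_GFP and SEZ_Prom without the ratio, also fell with it.

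Because so many of these genes were high and low together, the stretch before the start site is shown for 5 of them and for Anln and Nuf2 (a choice made after their values were seen). A pair of short elements is known from promoters of genes of the late cell cycle, the CHR with the letters TTTGAA or TTTAAA and the CCAAT box. In RefSeq windows of build GRCm38.p6, from 250 bases before to 50 bases after the start, read on both strands, TTTGAA was found in 26 of 35 windows of 34 mitosis genes (74.29%). It was found in 18.42% of 38 windows of DNA replication genes and in 17.89% of all 32851 windows. CCAAT was found in 77.14% of the windows of the mitosis genes, 52.63% of those of the replication genes and 37.41% of all, and at 2 or more places in 54.29%, 31.58% and 11.7%. Windows with both TTTGAA and CCAAT made up 65.71% for the mitosis genes, 7.895% for the replication genes and 6.953% of all. TTTAAA was found in 20% of the windows of the mitosis genes, 10.53% of those of the replication genes and 13.16% of all. The windows of Mad2l1, Nuf2, Nusap1 and Pttg1 held none of the 3 motifs, and a match is a string of letters, not a measured site. These 4 genes were 1.30, 1.45, 4.02 and 2.91 log2 units higher in SEZ_GFPprom than in DIEC_GFP. Whether a motif goes with the level of a gene was not tested. The 250 bases before the start are given 5′ to 3′ on the strand of the gene, with matches to the CHR letters or the CCAAT box on either strand in capitals. The stretches lie at chr10:69352913-69353162 (minus strand) for Cdk1, chr4:118437344-118437593 (minus) for Cdc20, chr2:164769679-164769928 (plus) for Ube2c, chr5:30666636-30666885 (plus) for Cenpa, chr11:99024190-99024439 (minus) for Top2a, chr9:22389207-22389456 (minus) for Anln and chr1:169531465-169531714 (minus) for Nuf2.
Cdk1: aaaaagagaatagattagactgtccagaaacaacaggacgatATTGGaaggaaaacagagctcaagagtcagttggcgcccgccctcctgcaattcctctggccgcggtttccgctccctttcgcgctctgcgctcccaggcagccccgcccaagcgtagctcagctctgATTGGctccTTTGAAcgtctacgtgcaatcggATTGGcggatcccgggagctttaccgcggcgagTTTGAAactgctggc
Cdc20: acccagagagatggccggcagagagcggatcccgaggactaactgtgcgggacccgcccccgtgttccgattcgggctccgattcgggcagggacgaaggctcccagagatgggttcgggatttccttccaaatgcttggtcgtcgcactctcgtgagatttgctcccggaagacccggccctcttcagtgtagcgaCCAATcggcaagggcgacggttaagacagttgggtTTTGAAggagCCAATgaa
Ube2c: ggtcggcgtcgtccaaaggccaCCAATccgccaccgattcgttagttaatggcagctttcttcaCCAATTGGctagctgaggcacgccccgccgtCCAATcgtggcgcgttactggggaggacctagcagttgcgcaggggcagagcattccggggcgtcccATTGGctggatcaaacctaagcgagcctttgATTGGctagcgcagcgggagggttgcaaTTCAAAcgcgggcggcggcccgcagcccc
Cenpa: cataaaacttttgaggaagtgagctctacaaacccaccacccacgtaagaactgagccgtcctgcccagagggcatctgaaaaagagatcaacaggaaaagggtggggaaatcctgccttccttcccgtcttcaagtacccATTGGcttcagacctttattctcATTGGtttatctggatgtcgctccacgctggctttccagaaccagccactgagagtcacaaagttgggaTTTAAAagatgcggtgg
Top2a: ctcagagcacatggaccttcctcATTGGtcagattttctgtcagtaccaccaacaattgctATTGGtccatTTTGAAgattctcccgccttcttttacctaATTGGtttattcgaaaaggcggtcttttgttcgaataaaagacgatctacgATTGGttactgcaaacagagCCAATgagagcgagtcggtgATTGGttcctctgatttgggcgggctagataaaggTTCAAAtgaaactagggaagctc
Anln: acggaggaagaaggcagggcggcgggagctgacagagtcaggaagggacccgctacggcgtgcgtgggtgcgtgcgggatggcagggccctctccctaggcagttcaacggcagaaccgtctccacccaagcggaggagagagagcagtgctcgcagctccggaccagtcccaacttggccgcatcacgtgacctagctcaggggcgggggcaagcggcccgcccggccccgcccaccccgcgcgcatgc
Nuf2: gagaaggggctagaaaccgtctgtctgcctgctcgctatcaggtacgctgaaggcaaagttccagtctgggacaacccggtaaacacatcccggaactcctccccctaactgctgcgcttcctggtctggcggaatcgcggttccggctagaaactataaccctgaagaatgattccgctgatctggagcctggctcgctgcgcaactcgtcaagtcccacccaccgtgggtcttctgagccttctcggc
Cdk1 and Top2a hold 2 matches to TTTGAA each, Cdc20 and Ube2c 1 each, and Cenpa 1 match to TTTAAA. The CCAAT box occurs at 6 places in Top2a and in Ube2c, where a pair of matches overlaps, at 3 in Cdk1 and at 2 in Cdc20 and Cenpa. The Anln stretch holds none, and its TTTGAA matches lie past the start, at bases 22 and 29. The Nuf2 stretch holds none.

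Among the genes of mitotic entry, 8 of 9 measured were higher in SEZ_GFPprom, in SEZ_GFP and in SEZ_CD24 than in DIEC_GFP, and 3 of 9 in SEZ_Prom. Values are linear intensities, listed by replicate number. Cdk1 read 548, 465, 350 and 274 on the SEZ_GFPprom arrays and 814 and 686 on the SEZ_GFP arrays. In SEZ_CD24 Cdk1 read 195 and 354, in SEZ_Prom 271 and 258, and in DIEC_GFP 25, 19, 8 and 48. No SEZ array of Cdk1, the kinase that starts mitosis, overlapped with DIEC_GFP. Cdk1 differed from DIEC_GFP by 4.26 log2 units in SEZ_GFPprom (SE 0.45, 19.1-fold higher), 5.18 in SEZ_GFP, 3.67 in SEZ_CD24 and 3.68 in SEZ_Prom, with limma adjusted p of 0.000158, 0.00019, 0.000926 and 0.0026. Cks2, a small subunit that binds Cdk1, followed. Cks2 read 1587, 1827, 1997 and 1239 on the SEZ_GFPprom arrays and 1947 and 2556 on the SEZ_GFP arrays. In SEZ_CD24 Cks2 read 600 and 422, in SEZ_Prom 193 and 194, and in DIEC_GFP 44, 25, 12 and 137. SEZ_Prom lay above DIEC_GFP, nearest to its replicate 4, and the other 3 sorts lay further above. Cks2 differed from DIEC_GFP by 5.48 log2 units in SEZ_GFPprom (SE 0.56, 44.6-fold higher), 5.93 in SEZ_GFP, 3.78 in SEZ_CD24 and 2.40 in SEZ_Prom, with limma adjusted p of 0.000126, 0.000281, 0.00283 and 0.0642. Of the rest of this group, Ccna2 (cyclin A2), Ccnb2 (cyclin B2), Cdca3 (a trigger of mitotic entry), the kinases Plk1 and Aurka, which build the spindle poles, and the centrosomal kinase Nek2 were higher by 1.89 (Nek2) to 4.22 log2 units (Ccna2) in SEZ_GFPprom.

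Foxm1, the transcription factor that activates many genes of this list, passed in none of the 10 comparisons. Foxm1 read 70, 87, 62 and 70 on the SEZ_GFPprom arrays and 66 and 71 on the SEZ_GFP arrays. In SEZ_CD24 Foxm1 read 79 and 102, in SEZ_Prom 76 and 71, and in DIEC_GFP 58, 58, 77 and 58. All 14 values lie between 58 and 102. SEZ_GFPprom overlaps with DIEC_GFP, and both SEZ_CD24 arrays lie above all 4 of DIEC_GFP. Foxm1 differed from DIEC_GFP by 0.20 log2 units in SEZ_GFPprom (SE 0.16, 1.15-fold), 0.14 in SEZ_GFP, 0.53 in SEZ_CD24 and 0.24 in SEZ_Prom, with limma adjusted p of 0.411, 0.745, 0.0884 and 0.58. The 95% interval of the difference between SEZ_GFPprom and DIEC_GFP ran from -0.14 to 0.55. Its 3 other probe sets did not pass between these groups either, at 0.71, 0.17 and -0.13 log2 units. Between SEZ_CD24 and DIEC_GFP the interval ran from 0.11 to 0.95, and Foxm1 passed there in 3 alternatives, at 0.67 log2 units with equal medians, 0.63 with quantile normalization and 0.63 without DIEC_GFP replicate 3 (limma adjusted p = 0.0384, 0.046 and 0.0445).

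The 4 genes of the spindle checkpoint were all higher in SEZ_GFPprom and SEZ_GFP than in DIEC_GFP, 2 of 4 in SEZ_CD24 and none in SEZ_Prom. Bub1 read 71, 76, 357 and 40 on the SEZ_GFPprom arrays and 253 and 175 on the SEZ_GFP arrays. In SEZ_CD24 Bub1 read 80 and 184, in SEZ_Prom 60 and 28, and in DIEC_GFP 20, 13, 9 and 13. Bub1, a kinase that recruits checkpoint proteins to kinetochores, was spread widely within SEZ_GFPprom, where replicate 3 stood at 357 and replicate 4 at 40. Bub1 differed from DIEC_GFP by 2.83 log2 units in SEZ_GFPprom (SE 0.58, 7.09-fold higher), 3.99 in SEZ_GFP, 3.20 in SEZ_CD24 and 1.63 in SEZ_Prom, with limma adjusted p of 0.00683, 0.00361, 0.00924 and 0.237. Bub1b, which encodes the checkpoint inhibitor BubR1, was 17.5-fold higher in SEZ_GFPprom (adjusted p = 0.000525). Mad2l1, the checkpoint protein Mad2, was 1.30 log2 units higher (adjusted p = 0.049) and the checkpoint kinase Ttk 2.16 (adjusted p = 0.0409), and each of the pair failed the threshold in 16 of the alternative settings. Their SEZ_GFPprom values, 477, 374, 867 and 323 and 22, 52, 290 and 33, were both highest in replicate 3.

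Genes of the anaphase promoting complex and securin, 3 in number, were higher than in DIEC_GFP in each of SEZ_GFPprom, SEZ_GFP and SEZ_CD24, and 1 of 3 was in SEZ_Prom. Cdc20 read 884, 1114, 760 and 560 on the SEZ_GFPprom arrays and 1223 and 1694 on the SEZ_GFP arrays. In SEZ_CD24 Cdc20 read 1013 and 760, in SEZ_Prom 233 and 217, and in DIEC_GFP 83, 48, 11 and 78. Cdc20, the activator that brings substrates to the complex, was at least 217 on every SEZ array and at most 83 in DIEC_GFP. Cdc20 differed from DIEC_GFP by 4.23 log2 units in SEZ_GFPprom (SE 0.53, 18.7-fold higher), 5.07 in SEZ_GFP, 4.35 in SEZ_CD24 and 2.39 in SEZ_Prom, with limma adjusted p of 0.000436, 0.000544, 0.00089 and 0.0513. Ube2c read 577, 572, 530 and 362 on the SEZ_GFPprom arrays and 719 and 768 on the SEZ_GFP arrays. In SEZ_CD24 Ube2c read 504 and 465, in SEZ_Prom 134 and 148, and in DIEC_GFP 18, 15, 34 and 35. Ube2c, the ubiquitin-conjugating enzyme of the complex, had no overlap with DIEC_GFP in any SEZ sort. Ube2c differed from DIEC_GFP by 4.40 log2 units in SEZ_GFPprom (SE 0.27, 21.1-fold higher), 4.96 in SEZ_GFP, 4.35 in SEZ_CD24 and 2.56 in SEZ_Prom, with limma adjusted p of 8.71e-06, 2.13e-05, 2.89e-05 and 0.00126. Pttg1 read 2420, 2056, 1693 and 2438 on the SEZ_GFPprom arrays and 2228 and 2991 on the SEZ_GFP arrays. In SEZ_CD24 Pttg1 read 2106 and 867, in SEZ_Prom 373 and 447, and in DIEC_GFP 248, 224, 216 and 543. Pttg1, the securin that blocks separase, overlapped between SEZ_Prom and DIEC_GFP, where replicate 4 stood at 543. Pttg1 differed from DIEC_GFP by 2.91 log2 units in SEZ_GFPprom (SE 0.33, 7.49-fold higher), 3.18 in SEZ_GFP, 2.25 in SEZ_CD24 and 0.52 in SEZ_Prom, with limma adjusted p of 0.000259, 0.000542, 0.00275 and 0.56.

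All 4 genes of the chromosomal passenger complex, which corrects faulty attachments and later guides cytokinesis, were higher than in DIEC_GFP in SEZ_GFPprom, SEZ_GFP and SEZ_CD24, and 2 of 4 in SEZ_Prom. Aurkb read 128, 158, 254 and 97 on the SEZ_GFPprom arrays and 369 and 201 on the SEZ_GFP arrays. In SEZ_CD24 Aurkb read 166 and 337, in SEZ_Prom 97 and 116, and in DIEC_GFP 27, 25, 9 and 13. The Aurkb values, of the kinase of the complex, do not overlap between DIEC_GFP and any SEZ sort. Aurkb differed from DIEC_GFP by 3.16 log2 units in SEZ_GFPprom (SE 0.41, 8.91-fold higher), 4.02 in SEZ_GFP, 3.82 in SEZ_CD24 and 2.66 in SEZ_Prom, with limma adjusted p of 0.000554, 0.000486, 0.000467 and 0.0093. Birc5 read 186, 177, 189 and 56 on the SEZ_GFPprom arrays and 244 and 177 on the SEZ_GFP arrays. In SEZ_CD24 Birc5 read 100 and 102, in SEZ_Prom 62 and 26, and in DIEC_GFP 12, 16, 13 and 13. Birc5, which encodes survivin, was level across the first 3 SEZ_GFPprom arrays and lower on replicate 4. Birc5 differed from DIEC_GFP by 3.35 log2 units in SEZ_GFPprom (SE 0.39, 10.2-fold higher), 3.95 in SEZ_GFP, 2.91 in SEZ_CD24 and 1.58 in SEZ_Prom, with limma adjusted p of 0.000266, 0.000345, 0.00146 and 0.0757. The scaffold subunits Incenp and Cdca8 (borealin) were 9.2-fold and 15.9-fold higher in SEZ_GFPprom than in DIEC_GFP (adjusted p = 0.000924 and 6.34e-05).

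**Figure D2:**
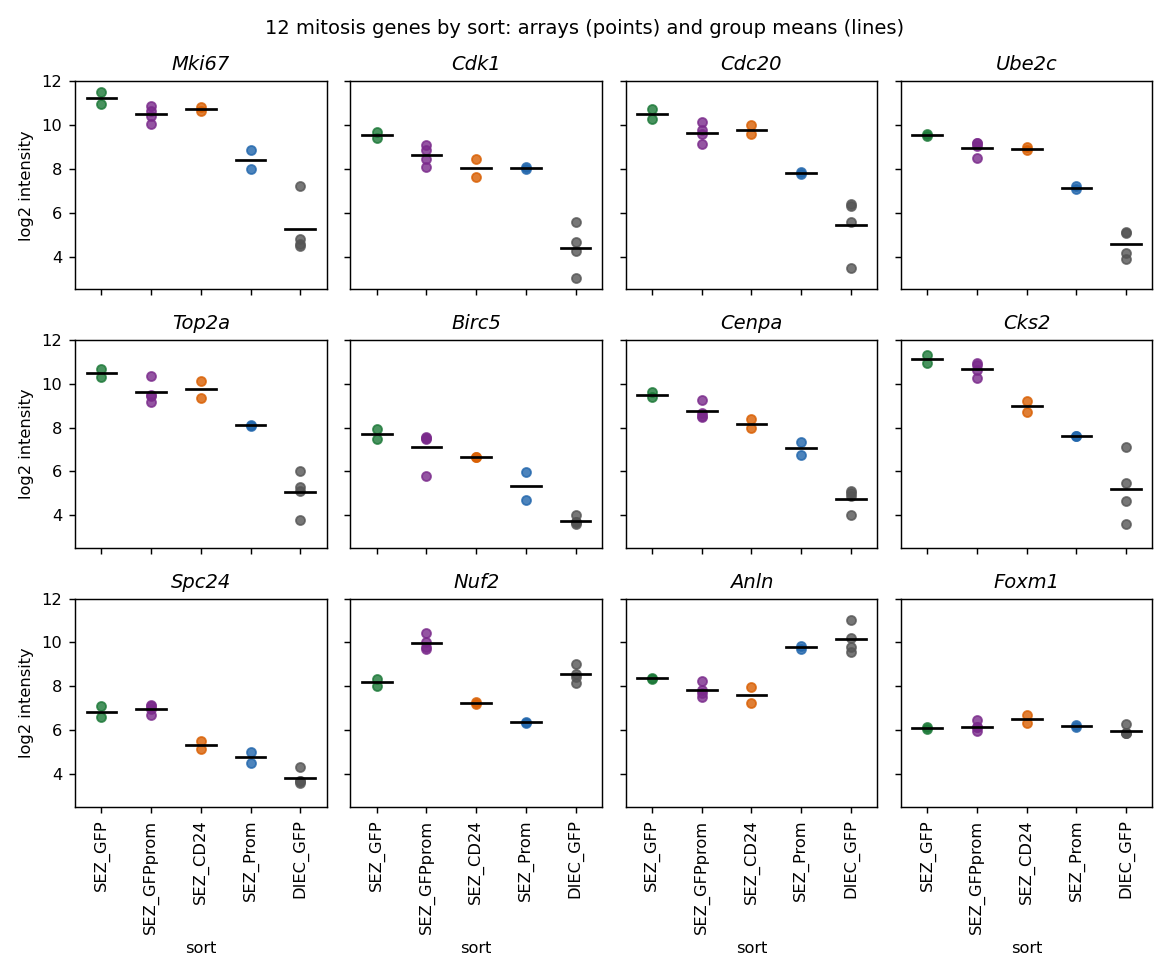
Log2 intensity of 12 genes in each sort, one point per array and a line at the group mean. In most panels SEZ_GFP has the highest mean and DIEC_GFP the lowest. Anln is highest in DIEC_GFP and SEZ_Prom, and Nuf2 is highest in SEZ_GFPprom. Foxm1 lies between 58 and 102 on the linear scale, with both SEZ_CD24 arrays above all of DIEC_GFP.

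At the centromere and kinetochore, 6 of 7 genes were higher in SEZ_GFPprom and in SEZ_GFP than in DIEC_GFP, 5 of 7 in SEZ_CD24 with 1 lower, and 4 of 7 in SEZ_Prom with 1 lower. Cenpa read 353, 410, 618 and 368 on the SEZ_GFPprom arrays and 662 and 790 on the SEZ_GFP arrays. In SEZ_CD24 Cenpa read 253 and 332, in SEZ_Prom 163 and 107, and in DIEC_GFP 29, 35, 16 and 32. Cenpa, the histone variant that marks centromeres, separated all 4 SEZ sorts from DIEC_GFP. Cenpa differed from DIEC_GFP by 3.99 log2 units in SEZ_GFPprom (SE 0.27, 15.9-fold higher), 4.75 in SEZ_GFP, 3.43 in SEZ_CD24 and 2.30 in SEZ_Prom, with limma adjusted p of 1.42e-05, 2.13e-05, 7.53e-05 and 0.00226. Ndc80 read 75, 126, 82 and 30 on the SEZ_GFPprom arrays and 160 and 119 on the SEZ_GFP arrays. In SEZ_CD24 Ndc80 read 28 and 114, in SEZ_Prom 45 and 36, and in DIEC_GFP 35, 11, 16 and 37. Ndc80, of the complex that holds microtubules, overlapped with DIEC_GFP in SEZ_GFPprom, SEZ_CD24 and SEZ_Prom. Ndc80 differed from DIEC_GFP by 1.67 log2 units in SEZ_GFPprom (SE 0.55, 3.18-fold), 2.66 in SEZ_GFP, 1.37 in SEZ_CD24 and 0.88 in SEZ_Prom, with limma adjusted p of 0.0553, 0.0222, 0.205 and 0.548. The call for Ndc80 in SEZ_GFPprom against DIEC_GFP was reached in 6 alternative settings. Spc24 and Spc25, subunits of the same complex, were 3.14 and 4.61 log2 units higher in SEZ_GFPprom, and the kinetochore motor Cenpe and the kinetochore protein Cenpf 3.71 and 3.15 (adjusted p at most 0.000171 in these 4).

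Nuf2, the partner of Ndc80 in that complex, had a pattern of its own, and it was singled out after its values were seen. Nuf2 read 1028, 895, 824 and 1399 on the SEZ_GFPprom arrays and 260 and 322 on the SEZ_GFP arrays. In SEZ_CD24 Nuf2 read 158 and 145, in SEZ_Prom 83 and 81, and in DIEC_GFP 288, 379, 511 and 344. SEZ_GFPprom lay above every other sort, DIEC_GFP overlapped with SEZ_GFP, and SEZ_CD24 and SEZ_Prom lay below. Nuf2 differed from DIEC_GFP by 1.45 log2 units in SEZ_GFPprom (SE 0.21, 2.73-fold higher), -0.36 in SEZ_GFP, -1.30 in SEZ_CD24 and -2.18 in SEZ_Prom, with limma adjusted p of 0.00101, 0.438, 0.0044 and 0.000622. It was also higher in SEZ_GFPprom than in SEZ_GFP by 1.81 log2 units, in SEZ_GFPprom than in SEZ_CD24 by 2.75 and in SEZ_GFPprom than in SEZ_Prom by 3.63 (adjusted p = 0.00163, 4.88e-05 and 2.7e-05). The ependymal marker sum was 10752 to 18711 in SEZ_GFPprom, 2725 to 5753 in DIEC_GFP, 540 and 1022 in SEZ_GFP, 405 and 595 in SEZ_Prom and 215 and 381 in SEZ_CD24. Its part in the Nuf2 result was not tested. Nuf2 has 1 probe set on the array, whose name marks a sequence shared between transcripts.

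The 5 spindle motors and binding proteins were all higher in SEZ_GFPprom, SEZ_GFP and SEZ_CD24, and 3 of 5 in SEZ_Prom. Kif11 read 43, 71, 115 and 121 on the SEZ_GFPprom arrays and 244 and 195 on the SEZ_GFP arrays. In SEZ_CD24 Kif11 read 65 and 146, in SEZ_Prom 59 and 70, and in DIEC_GFP 20, 14, 16 and 25. Kif11, the motor that pushes spindle poles apart, varied from 43 to 121 in SEZ_GFPprom without reaching the DIEC_GFP values. Kif11 differed from DIEC_GFP by 2.14 log2 units in SEZ_GFPprom (SE 0.35, 4.41-fold higher), 3.58 in SEZ_GFP, 2.41 in SEZ_CD24 and 1.81 in SEZ_Prom, with limma adjusted p of 0.00214, 0.000365, 0.00257 and 0.028. The chromokinesins Kif22 and Kif4, the spindle assembly factor Tpx2 and the spindle-associated protein Nusap1 were 2.17 (Kif4) to 4.02 log2 units (Nusap1) higher in SEZ_GFPprom. On the log2 scale Kif22 had the widest spread of the 41 genes in DIEC_GFP, with intensities of 18, 163, 40 and 346.

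Of 5 genes of the central spindle and cytokinesis, 4 were higher and 1 lower in SEZ_GFPprom and in SEZ_GFP, 3 higher and 1 lower in SEZ_CD24, and 2 higher in SEZ_Prom. Prc1, which bundles microtubules of the central spindle, was 9.25-fold higher in SEZ_GFPprom. The motors Kif20a and Kif23 were 6.88-fold and 9.24-fold higher there, and Racgap1, the partner of Kif23, 4-fold (adjusted p at most 0.0168 in these 4). Anln, which encodes the contractile ring scaffold anillin and is also made by myelinating oligodendrocytes, was the 1 gene lower in these sorts. Anln read 206, 298, 226 and 182 on the SEZ_GFPprom arrays and 337 and 326 on the SEZ_GFP arrays. In SEZ_CD24 Anln read 248 and 152, in SEZ_Prom 841 and 919, and in DIEC_GFP 762, 2102, 875 and 1159. DIEC_GFP lay above SEZ_GFPprom, SEZ_GFP and SEZ_CD24 on every array, and SEZ_Prom lay within its range. Anln differed from DIEC_GFP by -2.33 log2 units in SEZ_GFPprom (SE 0.30, 5.04-fold lower), -1.77 in SEZ_GFP, -2.54 in SEZ_CD24 and -0.36 in SEZ_Prom, with limma adjusted p of 0.000476, 0.00784, 0.000717 and 0.675. The other Anln probe set was also lower in SEZ_GFPprom than in DIEC_GFP, at -2.65 log2 units (adjusted p = 0.00461 in a fit of single probe sets). The sum of 4 oligodendrocyte markers was 16223 to 22481 in DIEC_GFP and 18886 and 19389 in SEZ_Prom, against 1607 to 7637 in the other 3 sorts. Its part in the Anln result was not tested.

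Genes of chromosome structure had the largest median difference from DIEC_GFP of these roles, at 4.89 log2 units in SEZ_GFPprom, and all 4 were higher in every SEZ sort. Mki67 read 1344, 1859, 1607 and 1058 on the SEZ_GFPprom arrays and 2000 and 2918 on the SEZ_GFP arrays. In SEZ_CD24 Mki67 read 1606 and 1796, in SEZ_Prom 251 and 464, and in DIEC_GFP 28, 24, 22 and 151. Mki67, which encodes the proliferation antigen Ki-67 that coats mitotic chromosomes, was at 151 in DIEC_GFP replicate 4 and at 22 to 28 in the other 3. Mki67 differed from DIEC_GFP by 5.21 log2 units in SEZ_GFPprom (SE 0.52, 37.1-fold higher), 5.97 in SEZ_GFP, 5.46 in SEZ_CD24 and 3.14 in SEZ_Prom, with limma adjusted p of 0.000123, 0.000207, 0.000225 and 0.0135. Top2a read 711, 704, 1286 and 565 on the SEZ_GFPprom arrays and 1266 and 1606 on the SEZ_GFP arrays. In SEZ_CD24 Top2a read 660 and 1109, in SEZ_Prom 276 and 271, and in DIEC_GFP 39, 34, 14 and 64. Top2a, the topoisomerase that untangles sister chromatids, had no overlap with DIEC_GFP in any SEZ sort. Top2a differed from DIEC_GFP by 4.56 log2 units in SEZ_GFPprom (SE 0.41, 23.5-fold higher), 5.43 in SEZ_GFP, 4.70 in SEZ_CD24 and 3.05 in SEZ_Prom, with limma adjusted p of 6.34e-05, 9.23e-05, 0.000126 and 0.00443. Cdca5 read 792, 554, 576 and 97 on the SEZ_GFPprom arrays and 879 and 714 on the SEZ_GFP arrays. In SEZ_CD24 Cdca5 read 237 and 516, in SEZ_Prom 125 and 164, and in DIEC_GFP 9, 7, 7 and 10. Cdca5, which encodes sororin, the protector of cohesin, had the largest difference of the 41 genes between SEZ_GFPprom and DIEC_GFP. Cdca5 differed from DIEC_GFP by 5.60 log2 units in SEZ_GFPprom (SE 0.54, 48.6-fold higher), 6.60 in SEZ_GFP, 5.42 in SEZ_CD24 and 4.14 in SEZ_Prom, with limma adjusted p of 9.69e-05, 0.000141, 0.000288 and 0.00401. Its DIEC_GFP values were 10 or less, and with values under 10 set to 10 the differences were 5.31, 6.31, 5.13 and 3.84. Hmgb2 read 473, 559, 539 and 589 on the SEZ_GFPprom arrays and 704 and 865 on the SEZ_GFP arrays. In SEZ_CD24 Hmgb2 read 327 and 236, in SEZ_Prom 268 and 221, and in DIEC_GFP 84, 65, 50 and 88. Hmgb2, a chromatin protein of dividing cells, did not overlap with DIEC_GFP in any SEZ sort. Hmgb2 differed from DIEC_GFP by 2.94 log2 units in SEZ_GFPprom (SE 0.20, 7.69-fold higher), 3.48 in SEZ_GFP, 1.99 in SEZ_CD24 and 1.80 in SEZ_Prom, with limma adjusted p of 1.4e-05, 2.13e-05, 0.000291 and 0.00156.

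**Figure D3:**
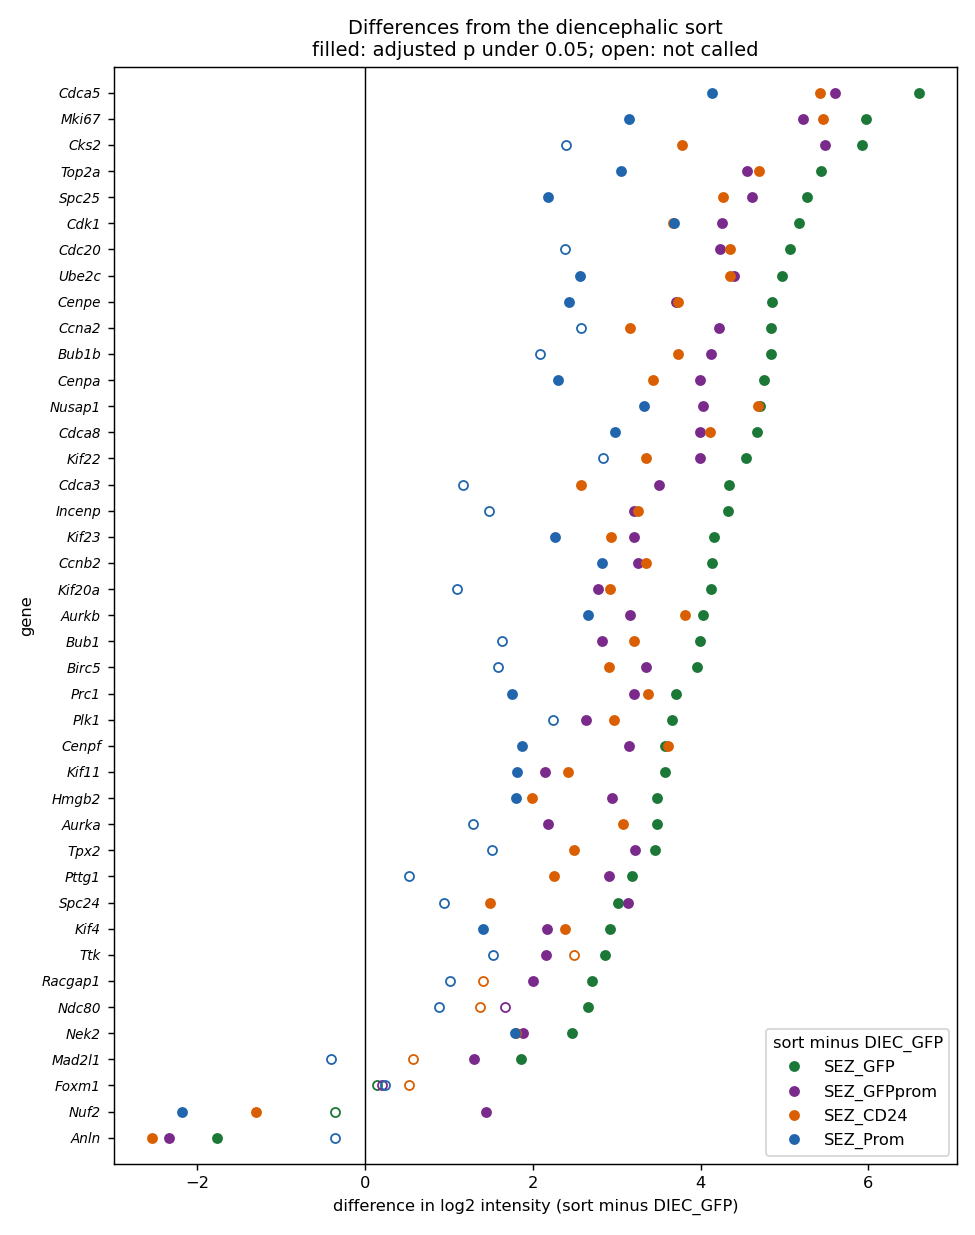
Difference in log2 intensity between each SEZ sort and DIEC_GFP for the 41 genes, with filled points where the limma adjusted p was under 0.05. Points of SEZ_Prom lie nearest to 0 for most genes, Cdca5 reaches 6.60 log2 units in SEZ_GFP, and Anln and Nuf2 lie below 0 in some sorts.

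The SEZ_Prom count depended on single arrays. With 1 SEZ_Prom replicate left out the sort has a lone array, and the mitosis count was then below the 20 with both. The count over all genes, 1151 with both, fell as well without replicate 1. In a fit of these 2 groups alone 13 mitosis genes passed, and the count over all genes was again lower. With probe sets that carry no mark of shared sequence 12 of 35 mitosis genes passed. In that last setting Top2a turned from 3.05 to -0.081 log2 units (adjusted p = 0.947). Among the genes that did not pass, the differences of Cdc20, Plk1, Ccna2 and Cks2 were 2.39, 2.24, 2.57 and 2.40 log2 units (adjusted p = 0.0512 to 0.0642).

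Within the SEZ, the prominin sort had the lowest median of these genes. Against SEZ_Prom, 20 of 41 genes were higher in SEZ_GFP and none lower, where 2.81% of all genes were higher and 4.15% lower (6.96% in either direction), with a median difference of 1.96 log2 units. Every SEZ_GFP array lay above every SEZ_Prom array in 39 genes and below in 1, where 24.4% and 27.8% of all genes did so. The 6 genes with the smallest adjusted p were Spc24, Cdca3, Kif20a, Cenpa, Nuf2 and Ube2c. Cdca3 read 530 and 545 in SEZ_GFP and 87 and 41 in SEZ_Prom, 9-fold higher (log2 3.17, SE 0.46, limma adjusted p = 0.00468). Kif20a, at 192 and 228 against 30 and 22, was 8.14-fold higher (adjusted p = 0.00532). Spc24, Cenpa, Nuf2 and Ube2c were 2.08, 2.45, 1.82 and 2.40 log2 units higher. With any 1 array of these 2 sorts left out its sort has a lone array, and the count was then below 20. The count over all genes, 1267 in the main fit, fell as well without SEZ_GFP replicate 2. With array weights 31 mitosis genes passed, and the count over all genes rose too. In a fit of these 2 groups alone 12 mitosis genes passed, and the count over all genes was lower. With probe sets that carry no mark of shared sequence 11 of 35 mitosis genes passed. Neuroblast markers were higher in SEZ_GFP for 5 of 6. Markers lower there were 4 of 4 for oligodendrocytes, 3 of 5 for choroid plexus, 2 of 6 for microglia and 1 of 5 for mature neurons. The choroid plexus sum was 12672 and 13102 in SEZ_Prom and 469 and 9216 in SEZ_GFP. The mature neuron sum was 8228 and 9488 in SEZ_Prom and 2054 and 2610 in SEZ_GFP. The part of these markers was not tested.

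Double-positive cells were next set against the prominin sort. In SEZ_GFPprom 12 of 41 were higher than in SEZ_Prom and 1 was lower, where 4.4% of all genes were higher and 2.76% lower (7.16% in either direction), with a median difference of 1.28 log2 units. Arrays did not overlap in 24 genes above and 1 below, against 16.5% and 14.8% of all genes. Nuf2, Spc24, Cdca3, Pttg1 and Ube2c had the smallest adjusted p among those higher, and Anln was the gene that was lower. Spc24 read 140, 139, 123 and 102 in SEZ_GFPprom and 23 and 32 in SEZ_Prom, 4.61-fold higher (log2 2.20, SE 0.26, limma adjusted p = 0.00043). Cdca3, Pttg1 and Ube2c were 2.34, 2.38 and 1.83 log2 units higher. From SEZ_Prom to SEZ_GFPprom Anln fell by 1.97 log2 units (adjusted p = 0.00756). The others that passed were Cenpa, Hmgb2, Spc25, Cks2, Prc1, Kif20a and Birc5. Birc5 overlapped between the sorts, at 186, 177, 189 and 56 against 62 and 26, with an adjusted p of 0.0445, and did not pass in 17 alternatives. The count of 13 was lower with either SEZ_Prom replicate left out, which leaves a lone array in that sort. The count over all genes, 1302 in the main fit, also fell without replicate 1. With probe sets that carry no mark of shared sequence 4 of 35 mitosis genes passed. In that setting Cenpa turned from 1.69 to -0.77 log2 units (adjusted p = 0.358). Ependymal markers were higher in SEZ_GFPprom for 6 of 6, while 3 of 4 oligodendrocyte and 3 of 5 choroid plexus markers were lower. The choroid plexus sum was 264 to 7490 in SEZ_GFPprom against 12672 and 13102 in SEZ_Prom. The part of these markers was not tested.

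The comparison of double-positive with GFP-sorted cells asks what the prominin gate adds to the GFP gate. In SEZ_GFPprom against SEZ_GFP only Nuf2 passed, as higher, where 2.63% of all genes were higher and 0.539% lower. The differences of 38 of the 41 genes were below 0, with a median of -0.70 log2 units against 0.066 over all genes, and 9 genes had an unadjusted p under 0.05, as did 15% of all genes. Every SEZ_GFPprom array lay below every SEZ_GFP array in 19 genes and above in 1, where 9.89% and 15.9% of all genes did so. Cdk1 read 548, 465, 350 and 274 against 814 and 686, a difference of -0.92 log2 units with a 95% interval, not adjusted for the number of genes, of -2.12 to 0.28. For Mki67 the difference was -0.75 (-2.15 to 0.65), for Top2a -0.88 (-1.97 to 0.22) and for Kif11 -1.43 (-2.38 to -0.49). These intervals leave room for differences of over 1 log2 unit, so the sorts were not shown to be alike. The calls moved with the settings. Kif11 and Kif20a also passed with array weights, Kif20a with the 3' to 5' ratio as a covariate and Cenpa with probe sets averaged per gene, all as lower in SEZ_GFPprom. With probe sets that carry no mark of shared sequence Cenpa and Top2a were lower and none was higher. Secondary probe sets of Cenpa and Top2a passed as lower in SEZ_GFPprom, at -2.23 and -2.02 log2 units (adjusted p = 0.0214 and 0.0152 in a fit of single probe sets), while their brightest did not. Ependymal markers were higher in SEZ_GFPprom for 6 of 6, with a median of 4.09 log2 units, and so were 2 of 4 oligodendrocyte and 2 of 5 mural markers. Of the neuroblast markers 1 of 6 was lower, with sums of 3822 to 5234 in SEZ_GFPprom and 10304 and 10427 in SEZ_GFP. The part of these markers was not tested.

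Few of the genes passed between the CD24 sort and the sorts for GFP. In SEZ_GFPprom against SEZ_CD24, Nuf2, Spc24 and Hmgb2 were higher and none was lower, where 8.98% of all genes were higher and 4.74% lower, and the median difference was 0.083 log2 units. Spc24 read 35 and 45 in SEZ_CD24, 3.15-fold lower than in SEZ_GFPprom (log2 1.66, SE 0.26, limma adjusted p = 0.00164). Hmgb2 read 327 and 236 there, 1.94-fold lower (adjusted p = 0.0243). For Mki67 the 95% interval of the difference was -1.65 to 1.16 and for Cdk1 -0.61 to 1.79. With probe sets that carry no mark of shared sequence 1 of 35 passed. In SEZ_GFP against SEZ_CD24 Hmgb2 and Spc24 passed as higher (adjusted p = 0.0368 and 0.0392), where 0.363% of all genes were higher and 0.456% lower (0.819% in either direction). The median difference was 0.96 log2 units, 11 genes had an unadjusted p under 0.05 (12.5% of all genes), and every SEZ_GFP array lay above every SEZ_CD24 array in 30 genes, where 22.3% of all genes did so. None passed without SEZ_GFPprom replicate 1 or 2, and 1 passed without DIEC_GFP replicate 1 or SEZ_GFPprom replicate 3 or 4. The calls were also lost or fewer with an array of SEZ_GFP, SEZ_CD24 or SEZ_Prom left out, which leaves a lone array in its sort. Over all genes the count, 149 in the main fit, fell as well without SEZ_GFP replicate 1.

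SEZ_Prom and SEZ_CD24 differed in 4 of the 41 genes, where 5.53% of all genes passed in either direction. Anln was higher in SEZ_Prom, at 841 and 919 against 248 and 152 (2.18 log2 units, limma adjusted p = 0.0167), where 3.43% of all genes were higher. From SEZ_CD24 to SEZ_Prom, Ube2c, Prc1 and Kif20a fell by 1.78, 1.61 and 1.82 log2 units (adjusted p = 0.0263, 0.0361 and 0.04), where 2.1% of all genes were lower. The median difference was -1.14 log2 units, 20 genes had an unadjusted p under 0.05 (21.2% of all genes), and every SEZ_Prom array lay below every SEZ_CD24 array in 30 genes, where 19.6% of all genes did so. In a fit of these 2 groups alone none of the 41 passed, and neither did any other gene. The calls were also lost without SEZ_CD24 replicate 2 or either SEZ_Prom replicate, which leaves a lone array in that sort. Without SEZ_Prom replicate 2 the count over all genes fell as well. Without DIEC_GFP replicate 4, 7 of the 41 passed, and 1197 of all genes against 1006 in the main fit. With probe sets averaged per gene 8 of the 41 passed. All 6 neuroblast markers, Cd24a among them, were lower in SEZ_Prom and 3 of 4 oligodendrocyte markers higher, and their part was not tested.

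Arrays of a sort differed more in these genes than in most genes. The median standard deviation within SEZ_GFPprom was 0.51 log2 units over the 41 genes and 0.31 over all genes, within SEZ_CD24 0.50 and 0.27, and within DIEC_GFP 0.59 and 0.36. SEZ_GFPprom replicate 4 was the lowest of its sort in 31 of the 41 genes. On that array Cdca5 read 97 against 554 to 792 on the other 3, and Aurka 47 against 85 to 202. Its transit-amplifying and neuroblast sums, 913 and 3822, were also the lowest of its sort. DIEC_GFP replicate 4 was the highest of its sort in 26 genes and the lowest in none, with Cks2 at 137 against 12 to 44, while its transit-amplifying and neuroblast sums, 236 and 759, were the lowest of its sort. SEZ_CD24 replicate 2 was above replicate 1 in 33 genes, for instance in Ccna2 at 568 against 76, and its sums of transit-amplifying markers were 5709 against 2708 and of neuroblast markers 16628 against 10003. Without SEZ_GFPprom replicate 4 the count of genes that passed against DIEC_GFP was 40.

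The 41 genes include 29 with more than 1 probe set, 92 in all, of which 51 are not the brightest of their gene. In SEZ_GFPprom against DIEC_GFP 21 of the 51 were higher and 1, of Anln, was lower. In SEZ_GFP 25 were higher, in SEZ_CD24 22 were higher and 1 lower, and in SEZ_Prom 7 were higher. These counts come from a fit of single probe sets, and the share over all probe sets was not computed. In the fit of genes 10.1%, 5.61%, 6.9% and 3.35% of all genes were higher in SEZ_GFPprom, SEZ_GFP, SEZ_CD24 and SEZ_Prom. In none of the 10 comparisons did a dimmer probe set pass in the direction opposite to that of a brightest one that passed.

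Nearly all of a further 117 mitosis genes that passed against DIEC_GFP were higher in the SEZ. In SEZ_GFPprom against DIEC_GFP 57 of the 117 were higher and 1 lower, in SEZ_GFP 58 and none, in SEZ_CD24 49 and 1, and in SEZ_Prom 12 and none. Of all genes 10.1%, 5.61%, 6.9% and 3.35% were higher in these comparisons. By role, the higher genes in SEZ_GFPprom were 18 of 33 at the centromere, kinetochore and checkpoint, 17 of 28 of spindle and cytokinesis, 11 of 22 kinases, phosphatases and transcription factors, 8 of 19 of condensin, cohesin and separase, and 3 of 15 of the anaphase promoting complex. Sgo1, which encodes shugoshin, the guard of centromeric cohesion, and the centromere protein Cenpm were 3.47 and 2.38 log2 units higher. The condensin subunits Ncaph and Ncapd2 were 2.61 and 2.30 higher, and the cohesin regulator Pds5a fell by 1.11 (adjusted p = 0.00925). The spindle proteins Ckap2l and Aspm were 2.44 and 3.78 higher, and the mitotic kinase Pbk and the phosphatase regulator Cdca2 4.11 and 2.53. Of the anaphase promoting complex, the subunit Anapc13 and the inhibitor Fbxo5 were 1.88 and 2.08 higher, and 12 of the 15, core subunits among them, did not pass. The limma adjusted p of the 10 higher genes named was at most 0.00622.

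Within the SEZ, 21 of the 117 were higher and 1, Kif5b, lower in SEZ_GFP than in SEZ_Prom, against 2.81% and 4.15% of all genes. In SEZ_GFPprom 4 (3.42%) were higher than in SEZ_Prom and 1 lower, where 4.4% and 2.76% of all genes were. In SEZ_Prom 7 were lower than in SEZ_CD24, where 2.1% of all genes were. SEZ_GFPprom had 2 higher (1.71%) and 4 lower against SEZ_CD24, where 8.98% and 4.74% of all genes were. It had 1 lower against SEZ_GFP (0.539% of all genes), the kinetochore gene Ska1 (-1.15 log2 units, adjusted p = 0.0483). In SEZ_GFP against SEZ_CD24 none of the 117 passed in limma, and 7 had an unadjusted p under 0.05, where 12.5% of all genes did.

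Genes of the phases before mitosis are set beside these as values. Of 39 DNA replication genes, 29 were higher in SEZ_GFPprom than in DIEC_GFP, 35 in SEZ_GFP, 30 in SEZ_CD24 and 5 in SEZ_Prom, and the median differences were 1.73, 2.47, 1.74 and 0.81 log2 units. Of 20 G1 cyclins, cyclin-dependent kinases and their inhibitors, 9, 9, 7 and 1 were higher and 1 was lower, in SEZ_GFPprom. Their median differences were 0.93, 1.06, 0.86 and 0.094. Of all genes 10.1%, 5.61%, 6.9% and 3.35% were higher in these comparisons, and 7.78% were lower in SEZ_GFPprom. The G1 count in SEZ_Prom, 5% of the list, was near that share. The median of the replication genes was 5.73 to 5.93 on the DIEC_GFP arrays and 7.47 to 8.38 in SEZ_GFPprom, and that of the G1 genes 6.21 to 6.70 and 6.83 to 7.33. Whether these lists differ from the mitosis genes was not tested.

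**Figure D4:**
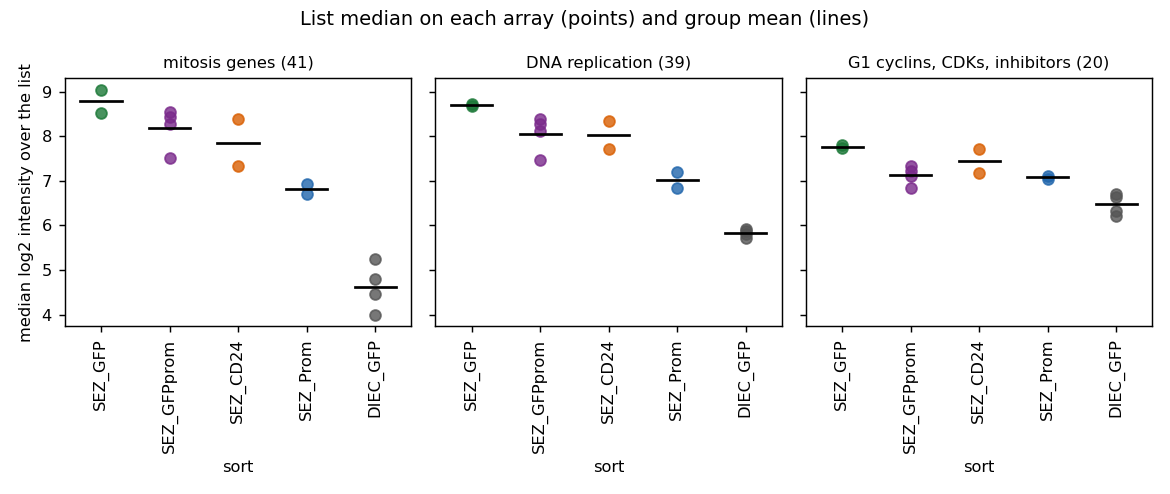
Median log2 intensity over 41 mitosis genes, 39 DNA replication genes and 20 G1 genes on each array (points), by sort, with a line at the mean of the arrays. DIEC_GFP arrays are the lowest in each panel, at 4.00 to 5.25 for the mitosis genes and 5.73 to 5.93 for the replication genes.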

How the data were processed

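The series holds 14 arrays of 5 sorts. By RMA, whose version is not stated, the authors made the deposited intensity values, per the submitters' processing notes. The planned design assumed log2 values, but the authors' deposited intensity values were linear whole numbers from 3 to 18925, so their log2 was taken with no pseudocount. Of 45101 probe sets, 34945 had 1 gene symbol, and the brightest of each gene, by mean over the arrays, gave 18193 genes. Depth does not apply to arrays.

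The test was that of limma 3.58.1 under R 4.3.3, run as lmFit, contrasts.fit, then eBayes on all 14 arrays at once (group means only, 9 residual degrees of freedom), two-sided, with Benjamini-Hochberg adjustment over all genes and a threshold of 0.05, in 10 comparisons. Differences are the first group minus the second. The members and lists were chosen with earlier results of these data known, as was the rule for named genes: values of every array for 16 genes (Ccnb1 not analysed) and the largest and smallest difference, up to 6 members per comparison within the SEZ, and 2 further genes per role. Values of Nuf2 and of other members were added after they were seen.

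Alternatives were quantile normalization, equal medians, dim genes left out, a floor of 10, averaged probe sets per gene, probe sets without a mark of shared sequence, fits of the groups compared, a robust prior with trend, weights per array, a replicate block, the 3' to 5' ratio as a covariate, each array left out in turn, and, chosen after seeing the data, each probe set as its own feature. Sequences are those of RefSeq, build GRCm38.p6.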

Additional observations from a re-analysis of the deposited data

Results flagged for a closer look

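In 11 of 82 pairs of a gene and a sort with 4 arrays, the gap between the outermost array and its nearest neighbour, as a share of the sort's whole range on the log2 scale, was above the 95% critical value of Dixon's test. For independent pairs chance gives about 1 such pair in 20. These pairs share arrays, and many of the genes were high and low together, so they are not independent. The share over all genes was not computed. SEZ_GFPprom replicate 4 was the low array in 5 of them. Its share was 0.946 for Birc5 (log2 intensity 5.81 against 7.47 to 7.56), 0.946 for Nek2, 0.881 for Kif23, 0.873 for Bub1b and 0.830 for Cdca5.

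DIEC_GFP replicate 4 was the high array in 4, with a share of 0.959 for Prc1 (6.17 against 5.29 to 5.32), 0.875 for Mki67 (7.24 against 4.46 to 4.81), 0.850 for Pttg1 and 0.843 for Spc24. DIEC_GFP replicate 1 was the high array for Aurka, with 0.890. DIEC_GFP replicate 3 was the high array for Foxm1, with 1, since the other 3 arrays were equal.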

How the results depend on the processing

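Counts of mitosis genes against DIEC_GFP in SEZ_GFPprom, SEZ_GFP and SEZ_CD24 stayed within 1.5 times in every alternative. Those within the SEZ and of SEZ_Prom did not. The cause was not tested. Genes that passed numbered, in SEZ_GFP against SEZ_CD24 (2), 0 with the 3' to 5' ratio, without shared sequence, in a fit of the groups alone, with the trend and robust prior and with the floor of 10, and 1 with single probe sets, with their mean, with quantile normalization and without the dimmest 50%. In SEZ_GFP against SEZ_Prom (20) it was 31 with weights, 11 without shared sequence and 12 with the groups alone. SEZ_GFPprom against SEZ_CD24 (3) had 1 without shared sequence, and against SEZ_GFP (1, higher) 2 with the ratio or the mean (1 higher, 1 lower), 2 without shared sequence (both lower) and 3 with weights (1 higher, 2 lower). SEZ_GFPprom against SEZ_Prom (13) had 4 without shared sequence. SEZ_Prom against DIEC_GFP (20) had 7 with the ratio, 12 without shared sequence and 13 with the groups alone, and against SEZ_CD24 (4) 1 with the ratio, 2 without shared sequence or with the floor, 0 with the groups alone and 8 with the mean or without the dimmest 50%. Without shared sequence Cenpa reversed to -0.77 (SEZ_GFPprom against SEZ_Prom, adjusted p = 0.358) and Top2a to -0.081 (SEZ_Prom against DIEC_GFP, adjusted p = 0.947).

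Over all genes, SEZ_CD24 against DIEC_GFP (3028) had 1808 with the groups alone, SEZ_GFP against DIEC_GFP (2302) 1296 with the ratio and 3558 with weights, and SEZ_GFPprom against DIEC_GFP (3247) 1486 with the ratio. SEZ_GFP against SEZ_CD24 (149) had 35 with the ratio, 314 with weights, 76 without shared sequence, 0 with the groups alone and 80 with the floor. SEZ_GFP against SEZ_Prom (1267) had 2897 with weights and 580 with the groups alone, SEZ_GFPprom against SEZ_CD24 (2496) 1580 with the groups alone, and against SEZ_GFP (577) 1364 with weights. SEZ_Prom against DIEC_GFP (1151) had 579 with the ratio and 538 with the groups alone, and against SEZ_CD24 (1006) 136 and 0.

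With each array left out in turn, where a lone array is assumed to vary like the other groups, the mitosis genes that passed against DIEC_GFP were 37 to 40 (SEZ_GFPprom), 32 to 39 (SEZ_GFP), 29 to 37 (SEZ_CD24) and 8 to 26 (SEZ_Prom). They were 1 to 24 in SEZ_GFP against SEZ_Prom, 0 to 2 in SEZ_GFP against SEZ_CD24, 2 to 4, 1 to 2 and 3 to 16 in SEZ_GFPprom against SEZ_CD24, SEZ_GFP and SEZ_Prom, and 0 to 7 in SEZ_Prom against SEZ_CD24. Over all genes the ranges, in the same order, were 2172 to 3323, 719 to 2690, 1714 to 3158, 351 to 1214, 77 to 1519, 16 to 356, 1102 to 2649, 198 to 646, 348 to 1525 and 161 to 1197.

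Whether replicate numbers pair the arrays was not settled. Deviations of 22 same-numbered pairs from their group means correlated at r = -0.188 to 0.129, with 3 above 0.1. For 54 pairs of unlike number r was -0.186 to 0.188, with 7 above 0.1. In a sort of 2 arrays the deviations mirror each other, so the pairs are not independent. A replicate block gave 8 mitosis genes in SEZ_GFPprom against SEZ_Prom, 0 in SEZ_GFP against SEZ_CD24 and 2 in SEZ_Prom against SEZ_CD24, and 811 of all genes in SEZ_GFPprom against SEZ_Prom (1302 without it).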
